A study of Caenorhabditis elegans with 4 samples.

Results

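The 8 microRNA pathway factors described here are the genes alg-1, alg-2, ain-1, ain-2, nhl-2, dcr-1, drsh-1 and pash-1 of Caenorhabditis elegans. The list goes by names and by roles in making microRNAs and in silencing through them, and its rule uses no measured value. It was, however, chosen with earlier results of these data known. All 8 are in the deposited count table of 20392 genes, and all 8 passed the filter on low counts. The series compares total RNA of synchronized larvae at the first stage, L1, in 2 groups with 2 libraries each. The lsm-8 group is strain GW1125, which carries the lsm-8 allele xe17, marked with a red reporter driven by the myo-2 promoter with the unc-54 3' UTR. It is balanced by nT1[qIs51], which gives a green pharynx, and the larvae sequenced are the non-green ones, given as lsm-8-/- in the labels. The WT group is the Bristol strain N2 (GW1), sorted by the same criteria of size and absence of green. Both groups hatched for 16 hours in M9 buffer, were sorted, and were then fed for 2.5 hours. The larvae come from a balanced stock, and sorting by the marker is the step that sets the genotype. Whether replicate libraries stem from different cultures is not stated, so the spread behind each p-value may be technical. The question the factors bear on is whether transcripts of this pathway differ when the nuclear LSM2-8 ring, of which LSM-8 is the defining subunit, is impaired.

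MicroRNAs are cut from their primary transcripts in the nucleus by the microprocessor, made of the RNase III enzyme Drosha (DRSH-1) and its RNA-binding partner PASH-1. The hairpins released are cut again in the cytoplasm by Dicer (DCR-1), and 1 strand is loaded into an Argonaute, ALG-1 or ALG-2. The Argonaute then binds a GW182-type protein, AIN-1 or AIN-2, and target mRNAs are repressed and degraded. NHL-2, a TRIM-NHL protein, acts with this silencing complex and enhances its activity. In the worm the pathway is best known for the timing of larval cell fates, set by the microRNAs lin-4 and let-7. A search of the count table by name (mir- and a number, let-7, lin-4 and lsy-6) found 0 rows for microRNA genes. Other forms of these names were not searched. The values below are those of the protein-coding transcripts only.

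Library totals were 101230177 and 90749329 counts in lsm-8 and 54419838 and 50755251 counts in WT. The transcript of lsm-8 stood at 3.25 and 3.73 CPM (the gene's share of the library's counts, scaled up and corrected for library composition by TMM) in lsm-8 and at 15.4 and 15.9 CPM in WT, lower in both lsm-8 libraries. Markers of 5 somatic tissues were detected in all libraries, although 3 of the 25, the cuticle collagen genes rol-6 and dpy-7 and the pharyngeal gene phat-1, averaged under 0.5 CPM in each group. The summed level of 5 body wall muscle markers was 9407 and 9541 CPM in lsm-8 and 7566 and 7705 CPM in WT. Most of that sum was unc-54 (6182 and 6263 CPM in lsm-8, 4986 and 5064 CPM in WT), whose 3' UTR is part of the reporter. Of the same set, myo-3 (1425 and 1521 CPM in lsm-8, 1066 and 1081 CPM in WT) was also called higher. So was unc-15 (1297 and 1269 CPM in lsm-8, 1009 and 1037 CPM in WT), while unc-27 and tni-1 were not called. Pharynx markers summed to 4143 and 4483 CPM in lsm-8 and 3664 and 3618 CPM in WT, with 3 called higher and 0 lower. Neuron markers summed to 300.5 and 286 CPM in lsm-8 and 267.3 and 260.4 CPM in WT, with 3 higher and 0 lower. For epidermis markers the sums were 158.1 and 154.5 CPM in lsm-8 and 126.7 and 134.2 CPM in WT, with 2 higher and 0 lower. The sum of 5 intestinal markers was 3457 and 3327 CPM in lsm-8 and 3376 and 3413 CPM in WT, within which elt-2, a gut GATA factor gene, had 18.3 and 18.03 CPM in lsm-8 and 5.65 and 6.70 CPM in WT. The 5 germ cell markers summed to 85.8 and 84.5 CPM in lsm-8 and 93.0 and 89.4 CPM in WT, with 0 called higher and 2 lower. Genes of yolk, oocytes and embryos, which mark older animals or eggs, summed to 13.0 and 13.2 CPM over 7 genes in lsm-8, against 10.9 and 10.9 CPM in WT. Sperm genes summed to 1.08 and 1.15 CPM over 5 genes in lsm-8 and to 2.20 and 2.46 CPM in WT, with 2 of the 5 at 0 in every library. The part of these marker differences in the results below was not tested. In whole larvae, fewer cells of a type and less RNA per cell cannot be told apart.

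The Argonaute genes alg-1 and alg-2 and the TRIM-NHL gene nhl-2 were higher in lsm-8 larvae, the GW182-type gene ain-2 was lower, and ain-1, dcr-1, drsh-1 and pash-1 did not pass the test. All the changes called were under 1.5-fold. A gene was called at an adjusted p under 0.05 in edgeR's quasi-likelihood test over 16771 genes. By that rule 3 of the 8 factors were called higher and 1 lower. Of all genes tested, 28.2% were called, 13.5% higher and 14.8% lower, and of the genes averaging at least 5 CPM, as all 8 factors do, 39.0% were called, 18.6% higher and 20.4% lower. The median log2 fold change of the 8 factors was 0.06, beside -0.01 over all genes tested. The values of the lsm-8 and WT libraries did not overlap for 6 of the 8 factors, 4 with lsm-8 higher and 2 with lsm-8 lower. Of all genes tested 62.8% had no overlap, 30.9% with lsm-8 higher and 31.9% with lsm-8 lower.

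**Figure D1:**
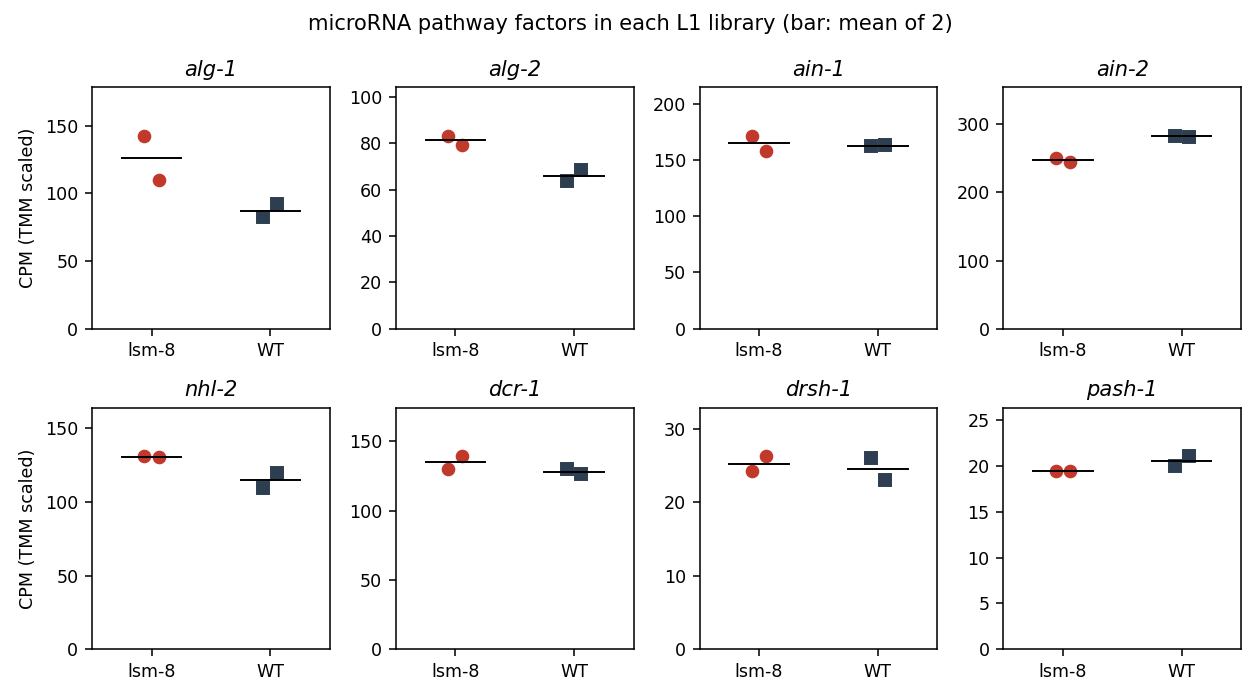
Level of each of the 8 factors in the 2 lsm-8 libraries (red circles, left) and the 2 WT libraries (dark squares, right), in CPM scaled by TMM on axes that start at 0; the bar is the mean of 2. Both lsm-8 points lie above both WT points for alg-1, alg-2, nhl-2 and, by a small margin, dcr-1. They lie below them for ain-2 and, by a small margin, pash-1, although dcr-1 and pash-1 were not called. The lsm-8 libraries of alg-1 are the farthest apart, at 142.7 and 110.0 CPM.

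The Argonautes are the proteins that hold the microRNA. The gene alg-1 (WBGene00000105, chromosome X) had 142.7 and 110.0 CPM in the lsm-8 libraries, against 82.4 and 91.9 CPM in the WT libraries. Both lsm-8 libraries were above both WT libraries, and lsm-8 replicate 1 stood above lsm-8 replicate 2. The log2 fold change was 0.54 (SE 0.14, 95% interval 0.17 to 0.90, n = 2 and 2, edgeR adjusted p = 0.0466), or 1.45-fold. The lsm-8 replicates of alg-1 differed by 0.38 on the log2 scale, where the median gap of all genes tested was 0.11. The size of the change rested on that library, with a log2 fold change of 0.34 without lsm-8 replicate 1 and 0.71 without lsm-8 replicate 2, and the call was lost with no filter on low counts (adjusted p = 0.0672), with limma voom (0.0865) and with a correction for gene length (0.154).

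The other Argonaute gene, alg-2 (WBGene00000106, chromosome II), had 83.3 and 79.4 CPM in the lsm-8 libraries and 63.6 and 68.4 CPM in the WT libraries. The groups did not overlap, and the replicates of both groups lay close together. Its log2 fold change was 0.30 (SE 0.06, 95% interval 0.17 to 0.43, edgeR adjusted p = 0.00111), or 1.23-fold. This call held under all 16 alternatives run, with log2 fold changes from 0.25 to 0.35. Of the 4 factors called, alg-2 is the one whose call held throughout.

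Summed per kilobase of the deposited gene length, the pair stood at 54.4 and 46.6 CPM per kilobase in lsm-8 and at 36.2 and 39.6 CPM per kilobase in WT, without overlap. The share of alg-1 in that sum was 52.9% and 47.5% in the lsm-8 libraries and 45.8% and 46.8% in the WT libraries. The ratio of alg-1 to alg-2, which does not depend on library scaling, was 1.12 and 0.91 in lsm-8 and 0.85 and 0.88 in WT. The difference of the log2 ratios was 0.23 (mean 0.01 ± 0.22 in lsm-8 and -0.21 ± 0.04 in WT, SD, n = 2 each). An exact two-sided permutation test gave p = 0.333, the smallest value this test allows with 2 against 2 libraries, so its outcome does not tell whether the ratio differs. The ratio difference was 0.07 without lsm-8 replicate 1 and 0.38 without lsm-8 replicate 2. The 2 genes are close relatives, and how the counting treated reads that match both is not given in the sources used here. An annotated small nucleolar RNA, K02B9.10, shares 96 bases with the annotated exons of alg-1 on the same strand, and whether its reads were counted with alg-1 was not tested.

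The GW182-type proteins link the Argonaute to the deadenylation machinery. The gene ain-2 (WBGene00015007, chromosome I) had 250.8 and 244.6 CPM in the lsm-8 libraries, against 283.6 and 281.2 CPM in the WT libraries. It was lower in both lsm-8 libraries, and the replicates of each group were within 0.04 of each other on the log2 scale. The log2 fold change was -0.19 (SE 0.06, 95% interval -0.30 to -0.07, edgeR adjusted p = 0.0139), or 12.3% below the WT level. Leaving out lsm-8 replicate 2 (adjusted p = 0.0577) or WT replicate 1 (0.0789), scaling by library totals (0.0696), and the deposited log2 values (0.0700) each ended the call, with log2 fold changes from -0.24 to -0.14 over all alternatives.

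Its paralog ain-1 (WBGene00015547, chromosome X) had 171.8 and 157.7 CPM in lsm-8 and 162.8 and 163.1 CPM in WT. The WT values lay between the lsm-8 values. The log2 fold change was 0.02 (SE 0.06, edgeR adjusted p = 0.879), and its 95% interval, -0.11 to 0.14, spans values from 7.16% below to 10.04% above the WT level. The ratio of ain-1 to ain-2 per kilobase was 0.634 and 0.597 in the lsm-8 libraries and 0.532 and 0.537 in the WT libraries. The lsm-8 ratios were higher than both WT ratios, by 0.20 on the log2 scale (-0.70 ± 0.06 in lsm-8 and -0.90 ± 0.01 in WT, SD, n = 2 each; exact two-sided permutation p = 0.333, the smallest possible). That difference was between 0.16 and 0.25 when each library was left out in turn. In every library ain-2 was the more abundant of the pair by this measure.

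**Figure D2:**
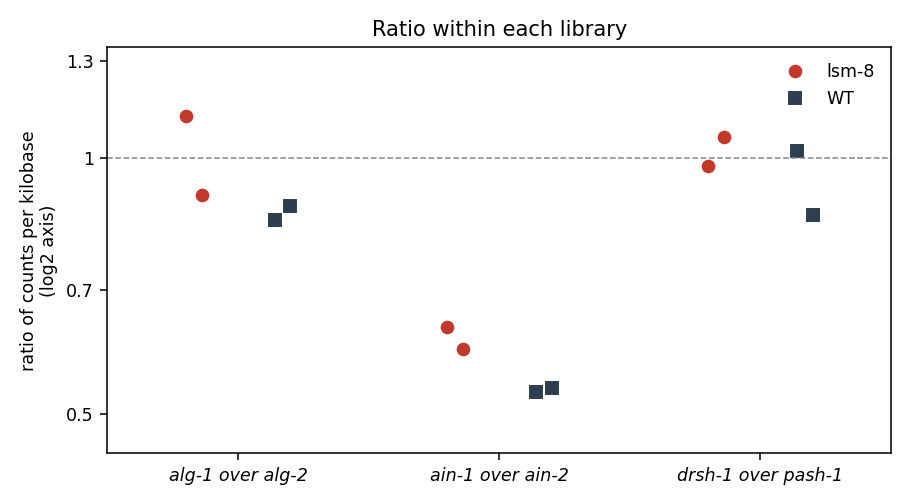
Ratio of counts per kilobase of deposited gene length within each library, for the Argonaute pair, the GW182-type pair and the microprocessor pair, on a log2 axis; red circles are lsm-8 libraries and dark squares WT libraries. The ain-1 to ain-2 ratios are 0.634 and 0.597 in lsm-8 and 0.532 and 0.537 in WT, while the groups overlap for drsh-1 over pash-1.

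The gene nhl-2 (WBGene00003598, chromosome III) had 130.9 and 130.1 CPM in the lsm-8 libraries and 109.3 and 119.6 CPM in the WT libraries. The lsm-8 libraries were nearly equal and above both WT libraries, of which replicate 1 was the lower. The log2 fold change was 0.19 (SE 0.06, 95% interval 0.06 to 0.32, edgeR adjusted p = 0.0231), or 1.14-fold. The call was lost without WT replicate 1 (log2 fold change 0.12, adjusted p = 0.276), without lsm-8 replicate 1 (0.0561) or lsm-8 replicate 2 (0.0510), and with the correction for gene length (0.12, 0.139).

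None of the 3 genes for microRNA processing, dcr-1, drsh-1 and pash-1, passed the test. In edgeR 0 of 3 had an unadjusted p under 0.05, and 0 of 3 were called by DESeq2 or limma voom. Dicer, dcr-1 (WBGene00000939, chromosome III), had 130.2 and 139.2 CPM in lsm-8 and 129.9 and 126.3 CPM in WT. The lower lsm-8 library and the higher WT library were nearly equal. Its log2 fold change was 0.07 (SE 0.06, edgeR adjusted p = 0.394), with a 95% interval from 3.36% lower to 14.4% higher.

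Drosha, drsh-1 (WBGene00009163, chromosome I), had 24.3 and 26.3 CPM in lsm-8 and 25.97 and 22.99 CPM in WT, and the groups overlapped. Its log2 fold change was 0.05 (SE 0.08, edgeR adjusted p = 0.725), with a 95% interval from 8.04% lower to 15.8% higher. Its partner pash-1 (WBGene00011908, chromosome I) had 19.4 and 19.5 CPM in lsm-8 and 19.98 and 21.05 CPM in WT. Both lsm-8 libraries were below both WT libraries by a small margin, with a log2 fold change of -0.08 (SE 0.08, edgeR adjusted p = 0.519) and a 95% interval from 15.2% lower to 6.14% higher. The ratio of drsh-1 to pash-1 per kilobase was 0.98 and 1.059 in lsm-8 and 1.02 and 0.86 in WT, which overlapped (difference 0.12 on the log2 scale, exact two-sided permutation p = 0.667). The summed level of the 2 was 14.5 and 15.2 CPM per kilobase in lsm-8 and 15.2 and 14.8 CPM per kilobase in WT. In the annotation used here, drsh-1 shares 90 exonic bases with gpx-1, a glutathione peroxidase gene on the opposite strand, and an intron of pash-1 holds the microRNA gene mir-1828. Reads of drsh-1 and gpx-1 in the shared stretch may not be told apart, since the use of strand in counting is not given.

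**Figure D3:**
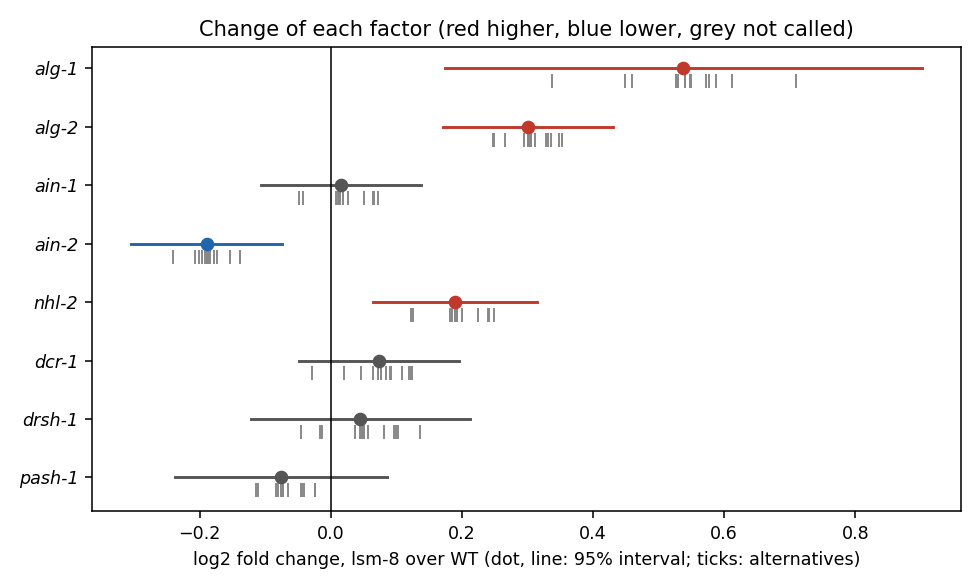
Log2 fold change of each factor, lsm-8 over WT, from edgeR (dot) with its 95% interval (line); the grey ticks below each line are the values under the 16 alternatives. The intervals of alg-1, alg-2 and nhl-2 lie above 0 and that of ain-2 below it, and all ticks of these 4 genes keep their sign, while ticks of ain-1, dcr-1 and drsh-1 fall on both sides of 0.

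Levels can be compared between the factors per kilobase of the deposited gene length, which ran from 2649 to 5732 bases. In lsm-8 the order was ain-2 (78.9 ± 1.41 CPM per kilobase, SD, n = 2), ain-1 (48.6 ± 2.94), nhl-2 (34.9 ± 0.14), alg-1 (25.4 ± 4.65), alg-2 (25.03 ± 0.84), dcr-1 (23.5 ± 1.11), drsh-1 (7.49 ± 0.42) and pash-1 (7.35 ± 0.01). In WT it was ain-2 (89.96 ± 0.53), ain-1 (48.1 ± 0.06), nhl-2 (30.7 ± 1.95), dcr-1 (22.4 ± 0.44), alg-2 (20.3 ± 1.03), alg-1 (17.5 ± 1.36), pash-1 (7.74 ± 0.29) and drsh-1 (7.25 ± 0.62). In both groups the microprocessor genes were the lowest and the GW182-type genes the highest. In lsm-8 the values of alg-1 spanned those of alg-2 and dcr-1, and drsh-1 and pash-1 overlapped in both groups. Among the genes tested, per-kilobase levels put ain-2 at the 93.2 percentile in lsm-8 and the 93.9 in WT, and drsh-1 at the 50.8 percentile in lsm-8 and the 50.3 in WT.

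The order of close neighbours depends on the length used. The merged exons of the WBcel235 annotation give alg-1 6696 bases, where the deposited length is 4968, and ain-1 2592 bases, where it is 3390. With the annotated lengths the mean levels of alg-1 and alg-2 were 18.9 and 19.6 CPM per kilobase in lsm-8 and 13.0 and 15.9 in WT. By these means alg-1 was then the lower of the pair in both groups, although in lsm-8 replicate 1 it was the higher. Gene length also moved with genotype across the table. The median log2 fold change was -0.11 in the shortest 20% of genes averaging at least 5 CPM and 0.06 in the longest 20%, those of 2537 bases or more, which is where all 8 factors lie. With a correction for this trend, alg-2 remained higher (log2 fold change 0.25, adjusted p = 0.00804) and ain-2 lower (-0.24, adjusted p = 0.00269), while alg-1 and nhl-2 were not called. Depth differed between the groups as well, and with all libraries thinned to the smallest total the same count of 3 factors higher and 1 lower was called.

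Among the other genes of the pathway, taken from fixed lists, 21 of 63 tested genes rose and 1 fell, each gene counted once and the 8 factors left out. These lists were drawn up with earlier results of these data known, so their direction is not independent evidence. Their median log2 fold change was 0.07, beside -0.01 over all genes tested, of which 13.5% rose and 14.8% fell. Of the genes averaging at least 5 CPM, as most of the list genes do, 18.6% rose and 20.4% fell. Among genes averaging at least 5 CPM, the median was 0.06 in the longest 20%, those of 2537 bases or more. With the correction for gene length, 17 of the 63 genes rose and 3 fell. The changes are uneven between the lists, as the plot of the lists shows.

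**Figure D4:**
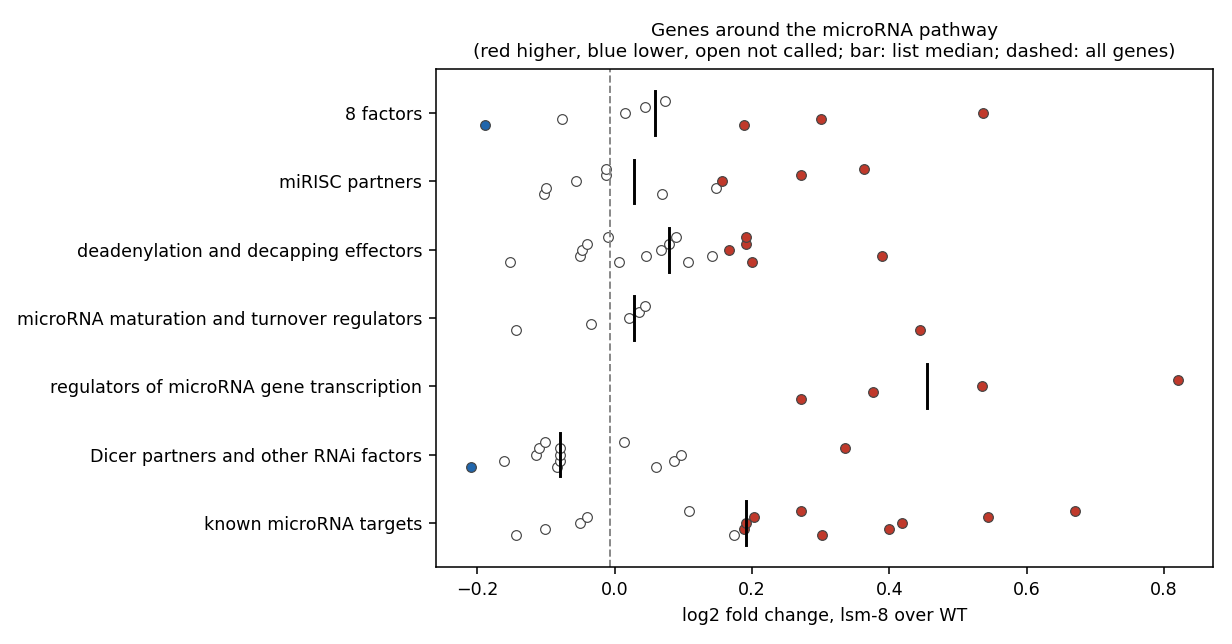
Log2 fold change, lsm-8 over WT, of each gene in the lists around the microRNA pathway, with the 8 factors on top; filled red and blue points were called higher and lower, open points were not called, black bars are list medians and the dashed line is the median of all genes tested. All 4 regulators of microRNA gene transcription lie to the right, with a median of 0.46, and most genes of the RNAi list lie left of 0, with a median of -0.08.

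Of 10 partners of the silencing complex, 3 rose and 0 fell, with a median log2 fold change of 0.03. Over all genes tested 13.5% rose and 14.8% fell. The DEAD-box helicase gene cgh-1, whose product acts with NHL-2, had 75.9 and 63.7 CPM in lsm-8 and 52.0 and 56.6 CPM in WT (log2 fold change 0.36, SE 0.08, edgeR adjusted p = 0.00191). Without lsm-8 replicate 1, the higher lsm-8 library here too, its log2 fold change was 0.23 and it was still called. The hnRNP K gene hrpk-1 rose by 0.27 (SE 0.06, adjusted p = 0.00312). The nuclease domain gene tsn-1 rose by 0.16 (SE 0.06, adjusted p = 0.0380), a call lost without any 1 of the 4 libraries (adjusted p from 0.0826 to 0.187), with no filter (0.0563) and with the length correction (0.133). The poly(A)-binding protein gene pab-2 was the uncalled gene of this list with the largest absolute value (0.15, SE 0.06, adjusted p = 0.0530), and it was called higher under 8 of the 16 alternatives (adjusted p from 0.0106 to 0.0481). The third Argonaute gene of this clade, alg-5, was less abundant, at 11.3 and 11.8 CPM in lsm-8 and 12.4 and 12.3 CPM in WT, and was not called (-0.10, SE 0.09, adjusted p = 0.455).

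Of 17 genes for deadenylation and decapping, the steps by which silenced mRNAs are degraded, 5 rose and 0 fell, with a median of 0.08. The called genes were 29.4% of the list, beside 28.2% of all genes tested and 39.0% of those averaging at least 5 CPM. With the length correction ntl-3 (log2 fold change 0.13, edgeR adjusted p = 0.0862) and xrn-1 (0.10, 0.196), both called in the main test, were not called. The CCR4-NOT subunit gene ntl-9 stood at 36.4 and 33.6 CPM in lsm-8 and at 25.4 and 28.0 CPM in WT, without overlap. Its log2 fold change of 0.39 (SE 0.07, edgeR adjusted p = 0.000515) was the largest of the list. Another subunit gene, ntl-11, rose by 0.20 (SE 0.06, adjusted p = 0.0217), a call lost without lsm-8 replicate 2 (0.143) or WT replicate 2 (0.104). The subunit gene of the PAN deadenylase, panl-2, had the lowest value of the list and was not called (-0.15, SE 0.06, adjusted p = 0.0736), although it was without lsm-8 replicate 2 (-0.21, 0.0456) and with the length correction (0.00944), while its log2 fold change was -0.10 without lsm-8 replicate 1 (0.416).

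Regulators of maturation and turnover were mostly near 0, with 1 of 6 higher and 0 lower. The gene that rose was xrn-2, whose exonuclease degrades microRNAs released from Argonaute in the worm, with 109.6 and 105.3 CPM in lsm-8 and 83.0 and 74.9 CPM in WT (log2 fold change 0.44, SE 0.06, edgeR adjusted p = 2.58e-05). The gene lin-28, which blocks maturation of let-7 and is itself a microRNA target, had 100.4 and 109.9 CPM in lsm-8 and 121.2 and 111.0 CPM in WT. It was not called (log2 fold change -0.14, SE 0.06, adjusted p = 0.106), and its value depended on the library left out. It was called without lsm-8 replicate 2 or WT replicate 2 (-0.21 for each, adjusted p = 0.0287 and 0.0307), while it was -0.08 without lsm-8 replicate 1 (0.516) or WT replicate 1 (0.533).

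All 4 regulators of microRNA gene transcription rose, with a median of 0.46, where 13.5% of all genes tested rose. The period homolog lin-42 had 3.28 and 2.44 CPM in lsm-8 and 1.39 and 1.86 CPM in WT (log2 fold change 0.82, SE 0.20, edgeR adjusted p = 0.00398). The gene myrf-1, for a membrane-bound factor that promotes lin-4 expression, had 53.4 and 44.99 CPM in lsm-8 and 31.8 and 36.2 CPM in WT (0.54, SE 0.08, adjusted p = 0.000157). The zinc finger gene blmp-1 rose by 0.38 (SE 0.08) and the nuclear receptor gene daf-12, which controls let-7 family genes, by 0.27 (SE 0.07). In these 4 genes lsm-8 replicate 1 was the higher lsm-8 library, as in alg-1, and without it lin-42 (adjusted p = 0.0503), blmp-1 (log2 fold change 0.24, adjusted p = 0.0518) and daf-12 (0.0726) were not called.

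Of 15 known microRNA targets, among them nhl-2 itself and also lin-28 and daf-12, 9 rose and 0 fell, with a median of 0.19. Over all genes tested 13.5% rose and 14.8% fell, and over those averaging at least 5 CPM 18.6% rose and 20.4% fell. Like the other lists, it was drawn up with earlier results of these data known, so its direction is not independent evidence. The gene lin-14, the first target found for lin-4, had 117.0 and 111.9 CPM in lsm-8 and 80.0 and 91.4 CPM in WT (log2 fold change 0.42, SE 0.07, edgeR adjusted p = 8.53e-05). The let-7 family target hbl-1 had 39.1 and 37.2 CPM in lsm-8 and 21.9 and 26.1 CPM in WT (0.67, SE 0.08, adjusted p = 3.54e-06). The lsy-6 target cog-1 rose by 0.54 (SE 0.14, adjusted p = 0.00647) from a low level, at 4.25 and 4.07 CPM in lsm-8 and 2.87 and 2.84 CPM in WT. Levels of the microRNAs that bind these targets were not measured here. The acetylcholine receptor gene unc-63 was the uncalled target with the largest absolute value (0.17, SE 0.09, adjusted p = 0.148).

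Of 14 Dicer partners and other RNAi factors, 1 rose and 1 fell, with a median of -0.08. The Argonaute gene ergo-1, which acts with endogenous small RNAs and not with microRNAs, had 98.9 and 101.0 CPM in lsm-8 and 79.1 and 79.3 CPM in WT (log2 fold change 0.34, SE 0.06, edgeR adjusted p = 0.000202). The endogenous RNAi gene eri-9 fell, with 32.6 and 33.9 CPM in lsm-8 and 40.3 and 36.5 CPM in WT (-0.21, SE 0.07, adjusted p = 0.0303), a call lost without lsm-8 replicate 1 (0.151) or WT replicate 1 (-0.14, 0.267) with DESeq2 (0.0562), with library totals (0.0975), with upper quartile scaling (0.0658) and with the deposited log2 values (0.110). The Dicer partner gene rde-4, for a double-stranded RNA binding protein, was not called (-0.16, SE 0.06, adjusted p = 0.0629).

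For each factor, the gene with the most similar profile was taken as the one with the smallest Euclidean distance between centred log2 CPM values over the 4 libraries, among genes within 1 log2 unit of its mean level. The distance was 0.05 for alg-1, whose nearest gene was F53F1.4, and 0.01 for alg-2, nearest to pygo-1. It was 0.02 for ain-1 with eif-3.I and 0.01 for ain-2 with nduf-7. The nearest genes were F35E12.6 for nhl-2 (0.02), ttbk-7 for dcr-1 (0.01), tbc-18 for drsh-1 (0.03) and spe-39 for pash-1 (0.01). None of the nearest genes was another factor, and each was picked from at least 1009 candidates over only 4 libraries.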

How the data were processed

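Per the labels' protocols, total RNA libraries came from a stranded kit, with single reads of 50 bases. The submitters' processing notes name Bowtie, edgeR 3.24.0 and the build ce10 without their roles, and how reads were counted, on which gene models and whether by strand is not given in the sources used here. The authors deposited unnormalized integer read counts for every gene beside its length. The other deposited table holds log2 values. From the values, 8 was added to the count scaled to the mean library total before the log2 was taken. Names were matched by WormBase identifier, and the WBcel235 annotation was used for chromosomes, exons and overlaps only. No sequence is printed.

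Genes were tested with the quasi-likelihood test of edgeR 4.0.16 (R 4.3.3; TMM, filterByExpr, robust), with Benjamini-Hochberg adjustment over 16771 genes. Standard errors come from the F statistic. Alternatives used DESeq2 1.42.0 and limma 3.58.1. The script was tested on simulated data. The 8 factors and all lists were chosen with earlier results of these data known. Of the listed names, ntl-1, rde-3 and sup-26 were not used, and let-711 is the same gene as ntl-1. Beside the factors and lsm-8, the text names the called list genes with the largest changes (up to 3 a direction). It also names the largest uncalled change of a list and the nearest profiles. The genes alg-5, daf-12, ntl-3 and xrn-1 were added after their values were seen. Counts of a factor ran from 1053 to 25721 per library, a counting error of at most 3.08%. Replicates were not duplicates, since the squared differences of their counts were 17.2 (lsm-8) and 10.01 (WT) times those from sampling (chi-square per degree of freedom). This measure grows with depth, which differed between the groups.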

Additional observations from a re-analysis of the deposited data

How the results depend on the processing

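Over 16 alternatives, 2258 and 2479 genes called higher and lower moved by less than 1.5 times, but library totals put 60.5% of calls higher and the deposited log2 values 60.7%, against 47.7% with TMM. Of the 8 factors, 3 were called higher and 1 lower in the main test. The count of factors higher was 1 with the correction for gene length, and the count lower was 0 with library totals, the deposited log2 values and the replicate block, and from 0 to 1 when each library was left out. For alg-1 the log2 fold change was 0.53 with no filter, 0.528 with limma voom and 0.449 with the length correction, none of them called. For ain-2 it was -0.138 both with the deposited log2 values and with scaling by totals, and from -0.207 to -0.174 over the libraries left out. For nhl-2 it was 0.122 with the length correction and from 0.125 to 0.249 over the libraries left out. Under the length correction the uncalled factors ain-1 (-0.042), dcr-1 (-0.029) and drsh-1 (-0.013) changed sign, and with libraries left out ain-1 ran from -0.048 to 0.072 and drsh-1 from -0.045 to 0.136, as did eif-3.I (-0.041 to 0.06, with -0.003 without WT replicate 2) and tbc-18 (-0.034 to 0.17). The lsm-8 minus WT difference of the log2 ratios of drsh-1 to pash-1 ran from -0.002 to 0.249 over the libraries left out. The cause of these changes was not tested.

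Of the 63 other pathway genes, the count lower was 1 in the main test, 0 with upper quartile scaling, library totals, DESeq2 and the deposited log2 values, 3 with the length correction, and from 0 to 3 over the libraries left out. The count higher was 21 in the main test, 17 with the length correction, 14 with the replicate block and 24 with library totals. With 1 library left out, the lone library of a group is assumed to vary like the other group.

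The replicate numbers are not stated to mark a shared batch, and over 9607 genes the deviations of same-numbered libraries had a correlation of -0.11. With the replicate block, ain-2 (-0.189, adjusted p = 0.0510) and nhl-2 (0.191, adjusted p = 0.0669) were not called, and 2 factors were higher, 0 lower, and 0 of the 63 pathway genes lower. Among other genes described, tsn-1 (adjusted p = 0.0985), ntl-11 (0.0631) and eri-9 (0.0837) were not called with the block. With the numbers crossed, an alternative chosen after the data were seen, 3 factors were higher and 1 lower, and 4 pathway genes were lower.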
